A study of Mus musculus with 8 samples.

Results

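The 8 genes described here encode the ubiquitin-editing protein A20 (Tnfaip3) and 7 proteins that bind it, form its complex or remove the same ubiquitin chains (Tnip1, Tnip2, Tax1bp1, Itch, Rnf11, Cyld and Otulin). They were chosen by symbol from the 27998 genes of the deposited tables, and each symbol matched 1 gene. The rule uses their symbols and no measured value, although they were proposed with earlier results of these data known.

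A20 is a brake on NF-kB, the transcription factor family that drives inflammatory genes in microglia, the macrophages that live in brain and spinal cord. Signals from tumour necrosis factor and toll-like receptors build chains of ubiquitin on adaptor proteins, and kinases that dock on these chains release NF-kB from its inhibitors. A20 edits or blocks the chains, Tnip1 (ABIN1) and Tnip2 (ABIN2) bind both the chains and A20, Tax1bp1, Itch and Rnf11 are described as cofactors of A20, and Cyld and Otulin are deubiquitinases that take chains apart. Tnfaip3 is itself a target of NF-kB, as is Nfkbia, which encodes an inhibitor of NF-kB.

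The study followed microglia of the lumbar spinal cord after sciatic nerve injury by droplet single-cell RNA-seq of transcript 3′ ends (10x Genomics), where a barcode marks the cell and a molecular identifier (UMI) marks each RNA counted. All animals were C57BL/6 and carried YFP and a tamoxifen-inducible Cre at the Cx3cr1 locus on 1 allele, and the cells were sorted for YFP. The 4 control libraries (Cx3cr1-yfp-creER/+) were from naive animals and from animals 1, 2 and 3 days after bilateral transection of the sciatic nerve, and the 4 A20 cKO libraries (Cx3cr1-yfp-creER/+; Tnfaip3 fl/fl) were from the same 4 conditions. Cords of several young adult animals were pooled for each library and, per the methods, experiments followed a course of tamoxifen, so that deletion in the A20 cKO libraries depends on Cre activity in cells that use the Cx3cr1 locus. Each group therefore had 1 library, and control and A20 cKO below mean the libraries so labelled. No test between groups was possible, cells of 1 library are not replicates, and all intervals below are 95% intervals that cover counting error only.

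After filters on UMIs, genes and mitochondrial share, 14626 of 14883 barcodes were kept, between 558 and 3585 cells a library, with medians between 2780 and 4274 UMIs. The microglial genes Tmem119 and Csf1r were each found in 96.1% of cells or more, whichever library was taken. Cx3cr1 was found in 90.5% to 98.9% of cells, P2ry12 in 90.1% to 100% and Sall1 in 30.2% to 41.0%. Fcrls was found in 86.1% to 97.6% of cells in the control libraries, in 59.96% of A20 cKO naive, 59.93% at day 1, 31.9% at day 2 and 26.7% at day 3. The libraries fell into 2 sets before any of the 8 genes was considered. Control day 3 and the 4 A20 cKO libraries shared 256 cell barcodes over their 10 pairs, or 13.2 per 1000000 barcode pairs, whereas control naive, day 1 and day 2 shared 27 over 3 pairs (a rate of 1.67), and the 15 pairs across the sets shared 98 (1.77). Single pairs ran from 5.41 to 67.59 within the larger set and from 1.48 to 2.29 within the smaller. Across the sets they ran from 0.797 to 8.828. The highest rate across the sets thus lay above the lowest within the larger set. Barcodes therefore divide the sets by pooled rate and not pair by pair. The 5 libraries with the higher pooled rate held Ttr, a choroid plexus gene, at 125.8 to 396.6 CPM (UMIs per 1000000 UMIs of the library). It was at 0 in the other 3. The same 5 libraries held the neutrophil genes S100a8 and S100a9 at a summed 18.5 to 32.0 CPM, against 0. The oligodendrocyte gene Mbp was at 79.9 to 133.8 CPM in them and at 14.7 to 24.7 in the others. The A20 cKO libraries against the control libraries of the naive state, day 1 and day 2, and control day 3 against any earlier control library, therefore cannot be told apart from this division. Only 1 comparison of genotypes, that of day 3, lies inside 1 set.

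The promoters of 4 of the genes are shown first because the results turn on these genes: Tnfaip3 and Tnip1 differed between genotypes at day 3, and Cyld and Otulin differed between the 2 sets of libraries. The stretches are from RefSeq on GRCm38.p6 and end 1 base before the RefSeq start. They lie outside annotated exons. That of Tnfaip3 lies inside the bounds of the gene in GENCODE, where its 5′ end is at 19015657, and the other stretches lie upstream of theirs. Capitals mark matches to the kappa-B consensus, the DNA motif that NF-kB binds, searched on both strands. Tnfaip3 lies at chr10:19015411-19015547 (minus strand), Tnip1 at chr11:54962941-54963140 (minus), Cyld at chr8:88696828-88697027 (plus) and Otulin at chr15:27630694-27630893 (minus).
Tnfaip3: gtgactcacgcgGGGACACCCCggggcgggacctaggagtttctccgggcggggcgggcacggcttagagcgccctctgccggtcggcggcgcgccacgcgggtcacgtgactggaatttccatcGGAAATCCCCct
Tnip1: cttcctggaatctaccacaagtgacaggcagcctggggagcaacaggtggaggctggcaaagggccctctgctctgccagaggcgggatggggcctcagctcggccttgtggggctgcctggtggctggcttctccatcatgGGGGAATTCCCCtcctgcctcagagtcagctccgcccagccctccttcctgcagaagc
Cyld: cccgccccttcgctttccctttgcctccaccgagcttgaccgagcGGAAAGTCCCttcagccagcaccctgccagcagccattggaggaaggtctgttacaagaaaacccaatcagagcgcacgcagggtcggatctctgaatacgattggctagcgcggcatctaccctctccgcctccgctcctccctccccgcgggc
Otulin: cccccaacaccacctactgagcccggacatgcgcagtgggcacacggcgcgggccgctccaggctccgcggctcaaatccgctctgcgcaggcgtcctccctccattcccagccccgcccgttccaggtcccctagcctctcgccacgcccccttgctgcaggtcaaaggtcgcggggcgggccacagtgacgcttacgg

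In the full windows of 300 bases around the start, 1 of the 2 Tnfaip3 windows, the one shown in part above, held 2 separate matches. They began at -125 and -12 from the start, and the other Tnfaip3 window had 0. Tnip1 held 3 matches that overlap in 1 palindrome, at -58, -57 and -56. Cyld had 1 match at -155, and Otulin and Tnip2 had no match to these letters in their windows. For Tax1bp1, 1 of its 2 windows had a match at 34. Of all 32851 RefSeq promoters of this length, 8.46% held at least 1 match and 1.22% at least 2. Of the 8 genes, 6 had promoter entries, and Itch and Rnf11 had none. A match describes letters in a window and not a site in use.

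Tnfaip3 is the targeted gene and is given first. Its level was 24.1 CPM in control naive, 25.2 at day 1, 6.83 at day 2 and 20.3 at day 3. In the libraries labelled A20 cKO it was 47.4 in the naive state, 42.3 at day 1, 52.4 at day 2 and 67.7 at day 3. Tnfaip3 reads were thus more frequent in each A20 cKO library than in any control library. The reads come from the 3′ end of the transcript and need not lie in the deleted stretch, so the UMIs do not check the deletion, and they say nothing of how much A20 protein was made. In bulk sums of this kind, more cells with the transcript and more transcript per cell cannot be told apart from the level alone.

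**Figure D1:**
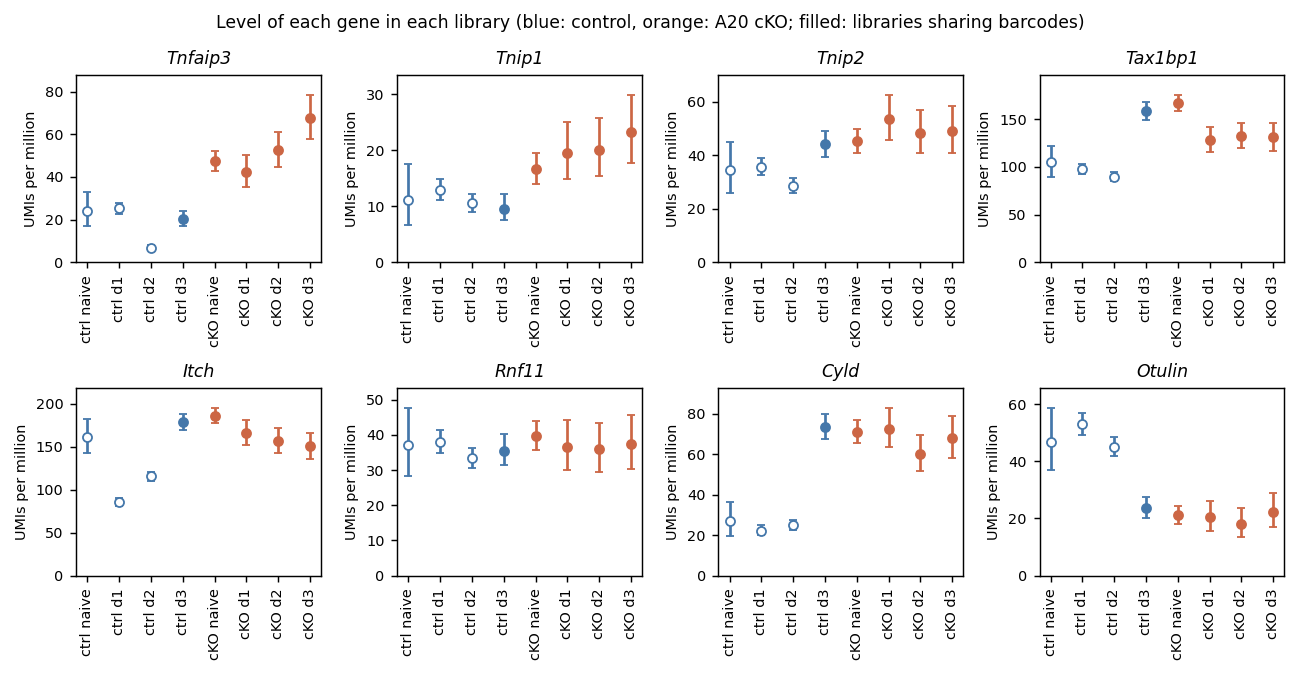
CPM of each of the 8 genes in each library, with exact Poisson 95% intervals. Control libraries are blue and A20 cKO libraries orange, and filled points are the 5 libraries with the higher pooled rate of shared cell barcodes. Tnfaip3 ran from 6.83 in control day 2 to 67.7 in A20 cKO day 3, Rnf11 stayed between 33.4 and 39.7, and Cyld and Otulin changed level between open and filled points.

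In order of level, A20 cKO day 3 was above A20 cKO day 2 by 0.37 on the log2 scale. Steps in such an order, here and below, are plain ratios of levels and are not taken relative to the median gene. A20 cKO day 1 was above control day 1 by 0.75, and control day 3 above control day 2 by 1.57. These 3 steps exceeded counting error. The other neighbouring libraries in the order did not differ beyond it. The whole range was 9.91-fold, the widest of the 8 genes, and the next widest was that of Cyld at 3.30-fold.

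Other comparisons between libraries are given as log2 ratios of summed UMIs relative to the median gene of the same comparison, with 1.5-fold as the threshold. The share of all tested genes past that threshold is given as the background, and their median is 0 by construction. Within the day 3 libraries, the only genotype comparison inside 1 set, Tnfaip3 was higher in A20 cKO by 1.85 (1.53 to 2.18), from 172 of 2541386 UMIs against 148 of 7286748. Tnip1 was higher by 1.39 (0.86 to 1.91). None of the other 6 genes passed 1.5-fold, and their ratios ran from -0.16 for Tax1bp1 to 0.27 for Tnip2. The count was 2 of 8 higher and 0 lower, against 6.97% and 6.61% of all genes tested.

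Tnip1 had the lowest mean level of the 8 genes over the 8 libraries. It was found at 11.1 CPM in control naive, 12.9 at day 1, 10.6 at day 2 and 9.61 at day 3, and in A20 cKO at 16.6, 19.5, 20.1 and 23.2. Each A20 cKO library lay above each control library, as for Tnfaip3. Neighbouring libraries in its order did not differ beyond counting error within either genotype. The step from the lowest A20 cKO library to the highest control library did, by 0.37 (0.04 to 0.69) as a plain ratio. A ratio relative to the median gene was not computed for that pair.

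Tnip2 was at 34.6, 35.9, 28.7 and 44.2 CPM in the control series from naive to day 3, and at 45.4, 53.8, 48.4 and 49.2 in A20 cKO. It too did not overlap between genotypes. Its level in control day 3 came close to A20 cKO naive, however, and the day 3 ratio of 0.27 had an interval of -0.04 to 0.57. Between the genotypes, 3 of the 8 genes (Tnfaip3, Tnip1 and Tnip2) were higher in A20 cKO without overlap, where 5.11% of 11045 genes were, and 1 (Otulin) was lower, where 4.58% were.

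**Figure D2:**
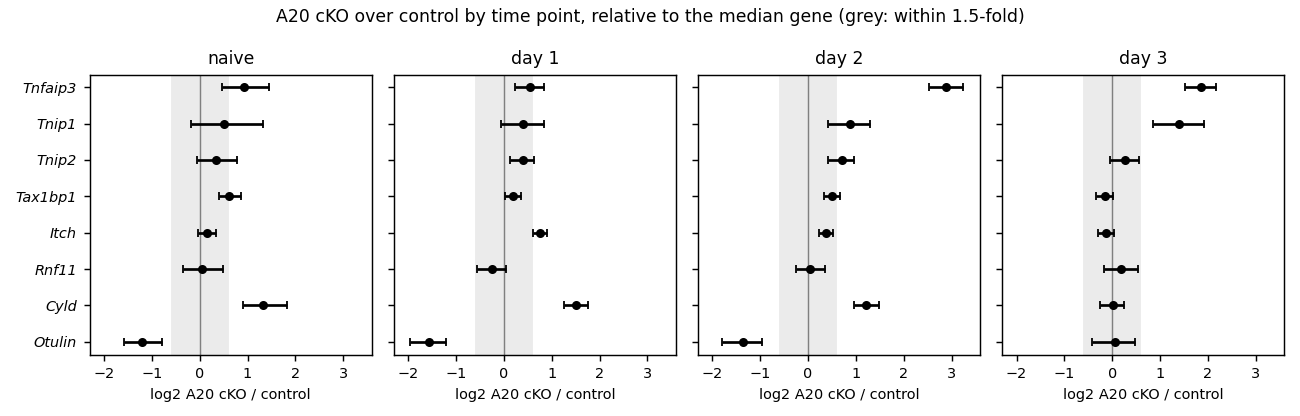
Log2 ratio of A20 cKO over control for each gene at each time point, relative to the median gene, with exact conditional 95% intervals and the range within 1.5-fold shaded. At day 3 Tnfaip3 (1.85) and Tnip1 (1.39) lie outside the shaded range, whereas Cyld (0.01) and Otulin (0.05) lie at 0 there and far from it at the other time points.

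In the control time course, naive, day 1 and day 2 lie in 1 set, and the comparisons against naive share that library. At day 1 Tnfaip3 was close to naive, at 0.18 (-0.28 to 0.71). At day 2 it was lower than naive by a log2 ratio of -1.71 (-2.24 to -1.13) and lower than day 1 by -1.92 (-2.25 to -1.61). It was the only one of the 8 genes past 1.5-fold in either comparison. That was 1 of 8 lower where 14.3% of tested genes were lower than naive and 5.07% lower than day 1, and 0 of 8 higher where 16.4% and 7.79% were. At day 3 the ratio to day 2 was 1.42 (1.06 to 1.80) and that to naive -0.33 (-0.83 to 0.23), both across the division of the libraries.

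Genes that tissue dissociation is known to raise moved in the same libraries. Of the early response list (Fos, Fosb, Jun, Junb, Egr1, Ier2, Atf3, Dusp1, Hspa1a, Hspa1b), 9 of 9 tested were higher at control day 1 than naive, where 14.2% of all genes were. At day 2 against day 1, 9 of 9 were lower, with a median of -4.49, where 5.07% of all genes were. At day 2 against naive 6 of 8 were higher and 0 lower (16.4% and 14.3% of all genes), while Tnfaip3 was lower. In A20 cKO, 8 of 8 tested were lower at day 1 than naive and 0 higher, with a median of -3.49, against 6.11% and 6.01% of all genes. At A20 cKO day 2, 8 of 8 were lower and 0 higher, with a median of -2.75, against 8.06% and 9.19%. At A20 cKO day 3, 0 of 8 were lower or higher (6.24% and 7.55%), with a median of -0.04. Tnfaip3 stood at -0.20, 0.22 and 0.61 in these comparisons. The part of this list in the Tnfaip3 values was not tested.

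Inside the A20 cKO time course, all in 1 set, Tnfaip3 was at -0.20 (-0.50 to 0.08) at day 1 against naive, 0.22 (-0.06 to 0.48) at day 2 and 0.61 (0.35 to 0.87) at day 3. No member passed 1.5-fold at day 1, where 6.01% of genes were higher and 6.11% lower, or at day 2, where 9.19% and 8.06% were. At day 3 Tnfaip3 and Tnip1 (0.59, 0.12 to 1.03) passed it, 2 of 8 higher and 0 lower, against 7.55% and 6.24%. Both were at the threshold, with folds of 1.53 and 1.51, and the count was 0 when the median was taken over all genes with at least 1 UMI. The ratio of day 2 to naive was higher in A20 cKO than in control by 1.93 (1.34 to 2.52) for Tnfaip3, and that of day 3 by 0.94 (0.37 to 1.51). The day 1 difference of -0.38 had an interval that held 0 (-0.94 to 0.17). The control naive library, with 39 Tnfaip3 UMIs, sets much of the width of these intervals. The control part of the day 3 difference, day 3 against naive, crosses the 2 sets of libraries. The same day 3 difference was -1.32 for Cyld and 1.26 for Otulin, the genes that differed between the sets.

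The share of cells with at least 1 Tnfaip3 UMI was compared after each cell was thinned to 2000 UMIs, since a deeper cell shows more genes. Thinned shares were 5.18%, 4.84%, 1.06% and 3.62% in the control series, from naive to day 3. In A20 cKO they were 8.04%, 6.39%, 8.63% and 11.9%. The order of these shares followed that of the levels except that control naive lay above control day 1. Without thinning they ran from 2.90% in control day 2 to 21.5% in A20 cKO day 3. Thinned shares of Tnip1 ran from 1.70% in control day 3 to 4.83% in A20 cKO day 3, so that most cells showed neither transcript at this depth.

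The UMIs per cell were set beside the number an equal level in all cells would give. At A20 cKO day 3, 36 cells held at least 2 UMIs where 23.4 would, and these cells carried 51.2% of the UMIs. The corresponding counts were 64 and 30.7 in A20 cKO naive, 20 and 9.37 at day 1 and 30 and 18.3 at day 2. In control they were 1 and 1.37, 24 and 19.3, 3 and 1.88, and 11 and 5.68. The first count exceeded the second in 7 of the 8 libraries, and in control day 2 this rested on 3 cells. At day 3 both genotypes had more such cells than an equal level would give.

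**Figure D3:**
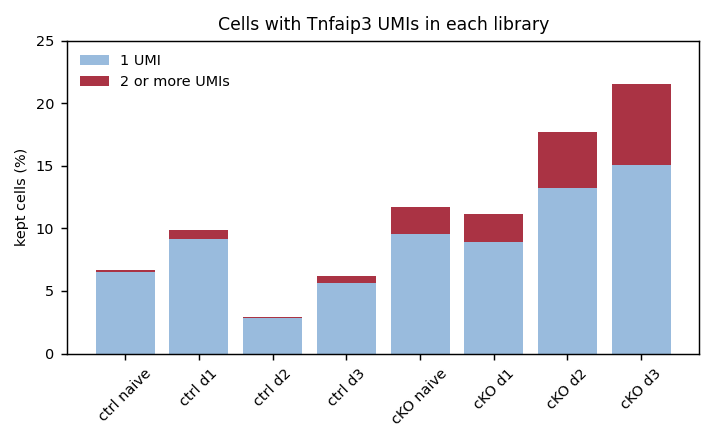
Share of kept cells with 1 and with 2 or more Tnfaip3 UMIs in each library, without thinning. The bars reach from 2.90% in control day 2 to 21.5% in A20 cKO day 3, where 36 cells held 2 or more UMIs.

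Tax1bp1, the ubiquitin-binding adaptor that brings A20 to its targets, was at 104.9, 97.9, 89.96 and 158.4 CPM in control naive to day 3 and at 167.2, 128.1, 132.5 and 131.0 in A20 cKO. Control day 3 lay with the A20 cKO libraries. Inside the A20 cKO set the naive library was the highest, and day 1, day 2 and day 3 stood at -0.42, -0.26 and -0.25 against it, all beyond counting error and all within 1.5-fold.

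Itch, a ubiquitin ligase of the HECT type, was at 161.7, 85.9, 115.6 and 178.7 CPM in the control series. In A20 cKO it was at 186.1, 166.1, 156.9 and 150.7. Control day 1 was the lowest library, at -0.79 (-0.98 to -0.59) against control naive, and day 2 lay between them. Itch was the 1 of 8 genes past 1.5-fold lower in that comparison, where 15.3% of tested genes were, and 0 of 8 were higher, where 14.2% were. At day 3 the genotypes differed by -0.13 (-0.30 to 0.04).

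Rnf11, a small RING ligase, varied least. It was at 37.0, 38.0, 33.4 and 35.5 CPM in the control series and at 39.7, 36.6, 35.9 and 37.4 in that of A20 cKO. The whole range was 1.19-fold and no pair of neighbours in its order differed beyond counting error.

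The levels of Cyld and Otulin divided between the 2 sets of libraries. Cyld was at 27.2, 22.3 and 24.8 CPM in control naive, day 1 and day 2, at 73.6 in control day 3, and at 71.2, 72.7, 60.3 and 68.1 in A20 cKO. Otulin had the opposite course, with 46.9, 53.1 and 45.01 in the first 3 libraries, 23.6 in control day 3 and 21.1, 20.5, 18.1 and 22.4 in A20 cKO. The largest step in each order, 1.14 for Cyld and 0.93 for Otulin, lay between the 2 sets, and it was the only step beyond counting error. Within the day 3 libraries the genotypes differed by 0.01 (-0.25 to 0.25) for Cyld and 0.05 (-0.42 to 0.48) for Otulin.

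Between the 2 sets, 3 of the 8 genes (Tnip2, Tax1bp1 and Cyld) were higher without overlap in the larger set, where 19.9% of 11045 genes were. The larger set is that with the higher pooled rate of shared barcodes. In it 1 of the 8 genes (Otulin) was lower, where 9.68% were. Levels of Ttr, of the neutrophil genes and of Mbp given above moved with the same division. Their part in the Cyld and Otulin values was not tested. Otulin overlaps Ank on the opposite strand, and a strand setting of the counting is not given in the sources used here.

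The remaining comparisons cross this division. In the naive state 3 of 8 genes (Cyld, Tnfaip3 and Tax1bp1) were higher in A20 cKO and Otulin was lower, against 17.1% and 10.6% of genes. At day 1, 2 (Cyld and Itch) were higher and 1 (Otulin) lower, against 22.2% and 17.4%. At day 2, 4 (Tnfaip3, Cyld, Tnip1 and Tnip2) were higher and Otulin was lower, against 21.1% and 17%. Tnfaip3 stood at 0.92 (0.46 to 1.45) in the naive state, 0.55 (0.24 to 0.84) at day 1 and 2.88 (2.52 to 3.25) at day 2. Control day 3 against naive had Cyld higher and Otulin lower of 7 genes tested, against 17.7% and 12.9%. Control day 3 against day 2 had Tnfaip3, Cyld and Tax1bp1 higher and Otulin lower, against 21.6% and 16.5%.

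The other genes of ubiquitin signalling to NF-kB, a list of 40 ligases, adaptors, kinases and deubiquitinases, showed no common direction at day 3. Between genotypes 5 of 35 tested were higher in A20 cKO and 2 lower, with a median of 0.06, where 6.97% of all genes were higher and 6.61% lower. The highest were Traf3 (1.40, 0.92 to 1.87), an adaptor of TNF family receptors, Usp18 (1.25), which removes the ubiquitin-like protein ISG15, and Tank (1.15), an adaptor of TRAF proteins. The lowest were Tab1, a partner of the kinase TAK1, at 5.90 against 13.2 CPM, Fadd (-0.74), an adaptor of death receptors, and Ndfip1 (-0.50), an activator of Itch, which did not pass 1.5-fold. In control day 2 against naive, 2 of 35 were higher and 6 lower, with a median of -0.06, against 16.4% and 14.3% of all genes. The lowest there were Birc2 (-1.62), a ligase of the TNF receptor complex, and Traf6 (-1.36), the ligase of toll-like receptor signalling. For Birc2, control naive lay apart from both control day 1 and day 2, inside 1 set. It was at 49.4 CPM in control naive, 14.2 at day 1 and 14.9 at day 2. In control day 3 and the A20 cKO libraries it was at 33.95 to 43.28.

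The NF-kB targets, a list of 28 genes without Tnfaip3, were mostly higher with Tnfaip3 at day 3. Between genotypes 18 of 23 tested were higher in A20 cKO and 0 lower, with a median of 1.25, against 6.97% and 6.61% of all genes. Cxcl16 was at 542.2 against 92.5 CPM and Ccl4, a chemokine gene, at 661.8 against 116.4, with log2 ratios of 2.67 and 2.62. Il12b, which encodes a subunit of interleukin 12, had 138 UMIs against 4, and its ratio of 6.58 had an interval of 5.36 to 8.64. The smallest ratios were those of Rel (-0.09), Il1a (0.15) and Cd83 (0.36). The early response list had 5 of 8 higher and 0 lower, with a median of 0.70, against the same shares. Of the microglial genes, P2ry12 was at 844.8 CPM in A20 cKO day 3 and 2191 in control day 3, Tmem119 at 1660 and 2132, and Fcrls at 112.9 and 1078. Their part in these values was not tested.

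The targets and Tnfaip3 did not move together in every comparison. At control day 1 against naive 14 of 25 targets were higher and 0 lower, with a median of 1.23, against 14.2% and 15.3% of all genes. Ccl2 stood at 6.15 (5.41 to 7.17), while Tnfaip3 stood at 0.18. At control day 2 against naive 5 of 22 were higher and 0 lower, with a median of 0.09, against 16.4% and 14.3%, and Tnfaip3 stood at -1.71. At control day 2 against day 1, 13 of 25 were lower and 0 higher, with a median of -0.59, against 5.07% and 7.79%. Tnfaip3 was lower there too, at -1.92. At A20 cKO day 1 against naive 6 of 24 were higher and 0 lower (6.01% and 6.11% of all genes). At A20 cKO day 2, 5 of 24 were higher and 2 lower (9.19% and 8.06%). Tnfaip3 stood at -0.20 and 0.22 in these 2 comparisons. Inside A20 cKO 12 of 24 targets were higher at day 3 than naive and 0 lower, with a median of 0.57, against 7.55% and 6.24%. The highest were Ccl4 (1.76), Ccl2 (1.62) and Ccl3 (1.45), and Nfkbia stood at 0.08 (-0.01 to 0.16).

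**Figure D4:**
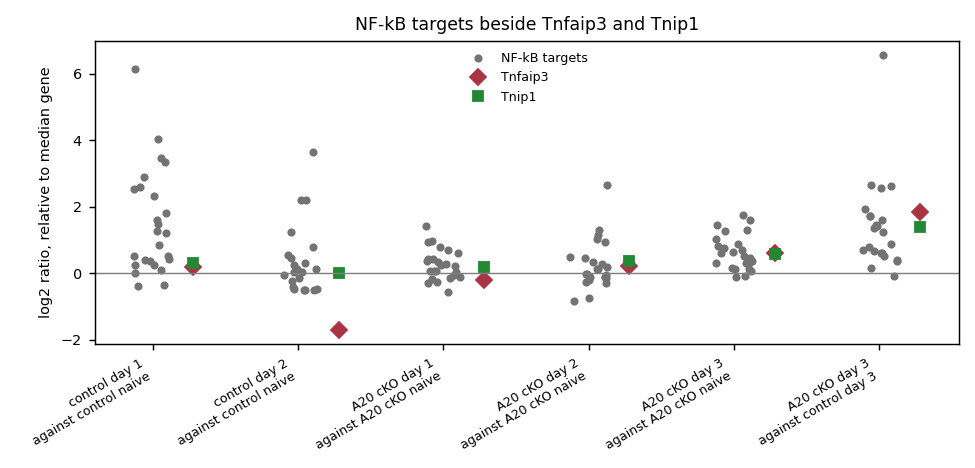
Log2 ratios of the tested NF-kB targets (grey points, spread sideways for legibility), Tnfaip3 (red diamonds) and Tnip1 (green squares) in the 6 comparisons that stay inside 1 set of libraries and are against naive or between genotypes. The targets have medians of 1.23 at control day 1 and 1.25 at day 3 between genotypes, where Tnfaip3 stands at 0.18 and 1.85.

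Over single cells of 1 library, correlations of Tnfaip3 with its partners were small. Pearson correlations of the log-normalised levels lay between -0.046 and 0.103 for all 7 partners in all 8 libraries, over 558 to 3585 cells. The mean over libraries was highest for Tnip2, at 0.027, and next for Tnip1, at 0.022, and the other 5 lay between -0.012 and 0.004. Over all 5692 genes ranked in this way the mean correlation had a median of 0.003 and a 95th percentile of 0.026. The highest values of Tnip1 were 0.090 in A20 cKO naive and 0.103 in A20 cKO day 2. In counts as sparse as these such values are a description of what was detected and no more. Among thinned cells of A20 cKO naive, Tnip1 was found in 5.71% of the 210 cells with Tnfaip3 (2.99% to 9.77%) and in 2.46% of the 2402 without (1.88% to 3.16%). At A20 cKO day 1 the shares were 7.55% of 53 and 3.73% of 777, and at day 2 they were 7.41% of 54 and 2.97% of 572. At day 3 they were 1.56% of 64 and 5.27% of 474. The share was thus higher in cells with Tnfaip3 in 3 of the 4 A20 cKO libraries, and the intervals overlapped in all 4. In control the share was lower in cells with Tnfaip3 except at day 3. It was 0% against 2.73% in control naive, 2.56% against 3.06% at day 1 and 0% against 2.32% at day 2. At control day 3 it was 2.94% against 1.66%.

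Over cells, Tnfaip3 was most like Nfkbia. Of 5692 genes found in at least 5% of cells of every library, Nfkbia had the highest mean correlation over the 8 libraries, at 0.132. It was followed by Tlr2 (0.116), a receptor for bacterial lipoproteins, Gpr84 (0.100), a receptor for fatty acids, Rab20 (0.098), a small GTPase, and Ccl4 (0.090). All 5 lie above the 95th percentile of 0.026 given above, as the rule that named them requires. Nfkbia stood at 0.041, 0.053, 0.019 and 0.043 in the control series, and at 0.162, 0.181, 0.234 and 0.319 in A20 cKO. Its correlation was thus above 0.1 in the 4 A20 cKO libraries and in no control library. The UMIs behind it numbered 423, 128, 159 and 172 in A20 cKO and 39, 355, 108 and 148 in control.

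After thinning to 2000 UMIs, 78.1% of the 64 A20 cKO day 3 cells with Tnfaip3 had Nfkbia (66.0% to 87.5%), against 54.4% of the 474 without (49.8% to 59.0%), and the correlation was 0.207. In control day 3 the shares were 58.8% of 68 (46.2% to 70.6%) and 50.9% of 1810 (48.6% to 53.3%), which overlap within counting error. Free RNA in the droplets adds UMIs to cells that do not make a gene, and its part was not tested.

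**Figure D5:**
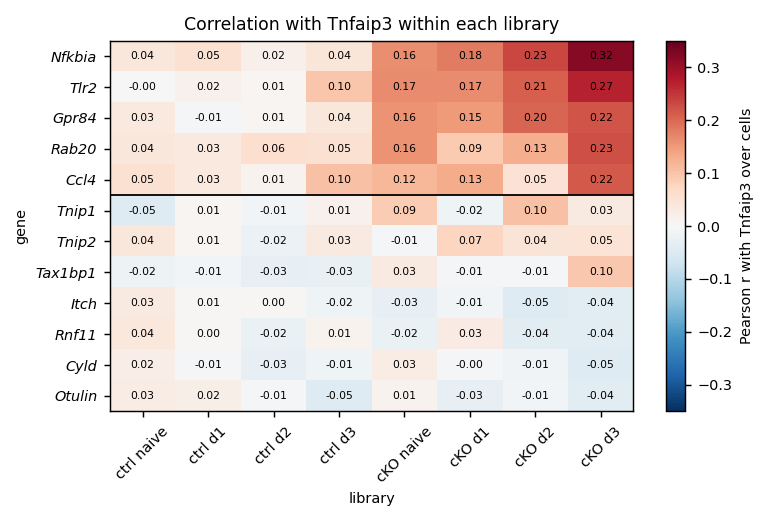
Pearson correlation with Tnfaip3 over the kept cells of each library for the 5 genes with the highest mean correlation (above the line) and the 7 partners (below it). Nfkbia reaches 0.319 in A20 cKO day 3, and no partner exceeds 0.103 in any library.

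Over the 8 libraries, the genes whose log2 levels were most like Tnfaip3 among 3284 genes at a mean of at least 50 CPM were Srpr (Pearson r of 0.94), P4ha1 (0.93), Sat1, Plek and Nfe2l2 (0.92 each). Tnip2 stood at 0.86, Tnip1 at 0.85, Rnf11 at 0.70, Cyld at 0.66, Tax1bp1 at 0.60, Itch at 0.42 and Otulin at -0.68. The 8 points share genotype, time and the division by barcodes, so these values describe the order of the libraries.

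Cells in division were set apart by 18 core G2/M genes, such as Mki67 and Top2a, of which 3 or more had to be detected. They numbered 1081 in control day 2 and 234 in control day 3. At control day 2 Tnfaip3 was at 7.15 CPM in these cells and 6.61 in the others, a log2 ratio of 0.12 (-0.47 to 0.69), so its low level there was found in both. In control day 3 the ratio was -0.28 (-1.06 to 0.38) and in A20 cKO naive 0.60 (0.01 to 1.10), from 92 such cells. Itch was lower in these cells than in the others in control day 2 (-0.38, -0.52 to -0.24). It was also lower in A20 cKO naive (-0.51, -0.91 to -0.15) and A20 cKO day 2 (-0.38, -0.73 to -0.05). Tnip2 was lower in control day 3 (-0.69) and A20 cKO day 1 (-1.49, from 3 UMIs in 33 cells). Tnip1 was lower in A20 cKO day 2 (-1.40, from 6 UMIs). Cyld was higher in A20 cKO day 1 (0.82). Otulin was higher in A20 cKO day 2 (1.01) and lower in A20 cKO day 3 (-2.46, from 1 UMI). All of these exceeded counting error, as plain ratios not relative to the median gene.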

How the data were processed

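Sorted lumbar cord microglia were profiled in 8 libraries, 1 per group. The files deposited by the authors hold UMI counts of each gene in each called cell, not normalised, as sparse matrices. The submitters' processing notes name Cell Ranger 2.1.1 and mm10, and the kit version differs between labels and methods. Gene positions are from GENCODE M21 on the same build.

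Cells with at least 1000 UMIs, at least 500 genes and at most 10% mitochondrial UMIs were kept. Doublets were not called. The methods name doublet exclusion in the sort, which does not remove droplets that took up more than 1 cell, so such droplets may remain. Libraries held between 1648400 and 15817426 UMIs. Levels are summed UMIs per 1000000 (CPM), with exact Poisson intervals. No length correction was applied, because 3′ counting gives 1 tag per molecule. Shares have Clopper-Pearson intervals, after thinning to 2000 UMIs, which left out 935 shallower cells. For ratios 0.5 UMIs were added to each sum, the median of genes reaching 100 UMIs over the pair of sums was subtracted (-0.13 to 0.20 over the 12 comparisons), and exact conditional intervals were computed. The median was not subtracted for steps in an order of libraries or for G2/M cells against other cells. Intervals of differences of ratios are normal approximations on the log scale. Correlations are of ln(1 + UMIs per 10000). Python 3.11.15, numpy 2.4.6, scipy 1.17.1, pandas 2.3.3 and edgeR 4.0.16 (TMM factors only) were used. The ratio code was tested on simulated data.

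The 8 genes, the pathway, NF-kB target, early response and marker lists and the core G2/M genes were chosen with earlier results of these data known. Genes outside the 8 were named by rule: the 3 highest and 3 lowest ratios of a list in a comparison, and the 5 genes most like Tnfaip3 over libraries and over cells, leaving out mitochondrial, ribosomal, sex-linked marker and predicted genes. Not every gene so named is printed. The lists of other cell types not given with the results summed, over the 8 libraries, to 1.85 to 83.7 CPM for monocytes, 13.5 to 51.2 for endothelial cells, 0 to 11.8 for astrocytes, 0.854 to 8.92 for neurons, 0 to 3.10 for lymphocytes and 0 to 2.31 for perivascular macrophages. The summed microglia and oligodendrocyte lists are not reported here. The alternatives tried were stricter and no cell filters, other scalings, leaving out barcodes shared between libraries or G2/M cells, other thinning, and other thresholds.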

Additional observations from a re-analysis of the deposited data

Results flagged for a closer look

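Tax1bp1 moved in opposite directions in the genotypes at day 3 against naive, beyond counting error in each. The log2 ratio was 0.52 (0.29 to 0.77) in control, across the 2 sets of libraries, and -0.25 (-0.43 to -0.08) in A20 cKO, inside 1 set. With 1 library per group the difference was not tested.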

How the results depend on the processing

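The 12 log2 ratios of Tnfaip3 stayed within their counting intervals under all 8 alternatives (96 of 96 values), and those of the other 7 genes in 667 of 672. No ratio of a gene past 1.5-fold changed sign. The count of genes past the threshold was within 1.5 times in 111 of 120 values. At 2-fold it was 0 for control day 1 against naive, 0 for A20 cKO day 3 against naive, 2 for the genotypes in the naive state and 3 at day 2. For A20 cKO day 3 against naive it was also 0 with plain ratios, 1 with the mean of cell levels and 0 with the gene filter at 1 UMI. It was 1 for A20 cKO day 2 against naive without G2/M cells, and 6 for the genotypes at day 1 with plain ratios, where the median gene was shifted by 0.20. Where a cause is not given by the setting itself, the cause was not tested. Of the correlations with Tnfaip3, 109 of 112 were within their interval. Thinning with another seed kept 62 of 64 shares within theirs, and thinning to 1000 UMIs moved 61 of 64, as fewer UMIs show fewer genes. No paired analysis was possible because each group held 1 library and so 1 replicate number. The genotypes were not paired by day, since 3 of the 4 pairs cross the 2 sets of libraries. With 1 library per group no library could be left out within a group, and variation between animals or preparations is unknown. Depth limits Tnip1, with 18 UMIs in control naive.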
